A study of Mus musculus with 4 samples.

Results

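Membrane carriers of organic anions, organic cations, bile acids and monocarboxylates were compared between AML12 cells grown in 2D and in 3D. The carriers were the protein-coding genes of the deposited table whose symbols belong to the families Slco, Slc10, Slc16, Slc22 and Slc47. The table lists 31828 genes, and 56 of them are such carriers, with 11 in Slco, 7 in Slc10, 14 in Slc16, 22 in Slc22 and 2 in Slc47. AML12 is a line of mouse hepatocytes that was established from a mouse transgenic for TGF-alpha. The labels give 2 RNA-seq libraries per culture. The 2D-cultured cells grew attached to a dish and were held in 1 mM hydroxyurea, an inhibitor of DNA replication, for 24 h, while the 3D-cultured cells grew inside Matrigel, a basement membrane extract, and were held in 1 mM hydroxyurea for 36 h. Before they were split into 2D and 3D, the cells grew in medium with serum, insulin, transferrin, selenium and dexamethasone. The length of the hydroxyurea treatment differed between the cultures in every library, so that its effect and that of the culture cannot be told apart. The sources used here do not say whether the RNA libraries of a culture came from separate cultures. The p-values below weigh the difference between cultures against the spread between libraries, drawn in part from other genes of similar level. That spread may be technical.

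Carriers of these families have separate substrates and places in the hepatocyte. Slco proteins (OATPs) take up large organic anions, including bile acids, prostaglandins and thyroid hormones, and Slc10a1 (NTCP) takes up bile acids with sodium from the blood side. Slc22 proteins carry smaller organic anions, organic cations, zwitterions and carnitine, and the Slc47 proteins (MATEs) export organic cations in exchange for protons. Slc16 proteins (MCTs) move lactate, pyruvate and ketone bodies, and some members carry creatine, thyroid hormones or aromatic amino acids instead. In liver, uptake carriers at the sinusoidal side and efflux pumps at the canalicular side together pass bile acids and drugs from blood to bile.

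Values are TPM, a level corrected for transcript length, so that levels of different genes within a library can be compared. TPM sum to the same total in every library, and the sequencing depth is therefore unknown. Between 13891 and 14256 genes reached 1 TPM in a library. Mitochondrial genes held 5.37% to 5.44% of the TPM in 2D and 6.51% to 6.78% in 3D, and with TPM rescaled without them and the 20 highest genes 10 carriers were higher and 3 lower, against 9 and 3 below. Log2(TPM + 1) correlated at 0.991 between the 2D libraries, at 0.992 between the 3D libraries and at 0.951 to 0.952 between cultures, across 14116 genes, which are not independent replicates. The label of the cells was checked against hepatocyte markers. Of 8 markers, Trf, Hnf4a, Apob, Ttr, Apoa1 and Alb were higher in 3D at a limma adjusted p-value under 0.05. Of all genes tested, 23.4% were higher and 27.1% lower at that threshold. The hepatocyte list summed to 120 TPM in each 2D library and to 592 and 576 TPM in the 3D libraries. Alb was at 0.819 and 1.20 TPM in 2D and at 12.7 and 10.0 TPM in 3D, while Cps1 and Serpina1a stayed under 0.3 TPM in every library. The 6 cholangiocyte markers summed to 2294 to 2402 TPM in 2D and to 2269 to 2357 TPM in 3D, with Epcam at or near 0. Of the 4 tested, 2 fell and 2 rose. The keratin Krt19 fell from 1728 and 1647 TPM to 1174 and 1226 TPM, as did Krt7, while Spp1 rose from 166 and 138 TPM to 764 and 786 TPM, as did Sox9. The 5 endothelial markers summed to 0.771 to 1.70 TPM, and none reached a mean of 1 TPM. Of 5 leukocyte markers, Ptprc and Adgre1 were at 0.296 TPM or less in every library, and the list summed to 18.6 to 19.5 TPM in 2D and to 22.2 to 26.4 TPM in 3D, nearly all of it Cd68. Stellate cell markers summed to 34.9 and 37.6 TPM in 2D and to 19.9 and 18.8 TPM in 3D over the 5 genes in the table, nearly all of it Des, with Col1a1 and Dcn under 0.6 TPM. The renal proximal tubule also makes many Slc22 proteins, and its 5 markers in the table summed to 8.16 and 8.74 TPM in 2D and to 6.07 and 5.21 TPM in 3D, with 2 of them higher and 2 lower. In bulk RNA, fewer cells of a type and less RNA per cell cannot be told apart, and the part of these markers in the carrier values was not tested.

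The prostaglandin transporter Slco2a1, the creatine carrier Slc16a12 and the ketone body carrier Slc16a6 rose in 3D, Slc10a3 and Slc10a7, orphan members of the bile acid carrier family, fell, and the sinusoidal uptake carriers Slc10a1, Slco1a1 and Slco1a4 were at or near 0 in both cultures. Of the 56 carriers, 18 had a mean of at least 1 TPM over the 4 libraries and were tested with limma on log2(TPM + 1). The other 38 had a lower mean and were not tested. Of the 18, 9 (50.0%) rose in 3D and 3 (16.7%) fell at an adjusted p-value under 0.05, against 23.4% and 27.1% of all 14116 genes tested. Together 12 of 18 passed, where 50.5% of all genes tested did. Their median log2 fold change of 3D over 2D was 0.26, and that of all genes tested was -0.04. By more than 1 on the log2 scale, 4 carriers rose, against 4.37% of all genes tested, and 0 fell, against 3.83%. The libraries of the cultures did not overlap for 15 of the 18, where this held for 77.5% of all genes tested. Slc16a9 reached the mean only through the 3D libraries, and without it 8 of 17 rose. Slc10a3 and Slc22a14 share bases with another coding gene on their own strand, and without them 9 of 16 rose and 2 fell. The carriers next to the limit were Slc22a15, tested with a mean of 1.15 TPM, and Slc22a12, a urate carrier not tested with a mean of 0.750 TPM.

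**Figure D1:**
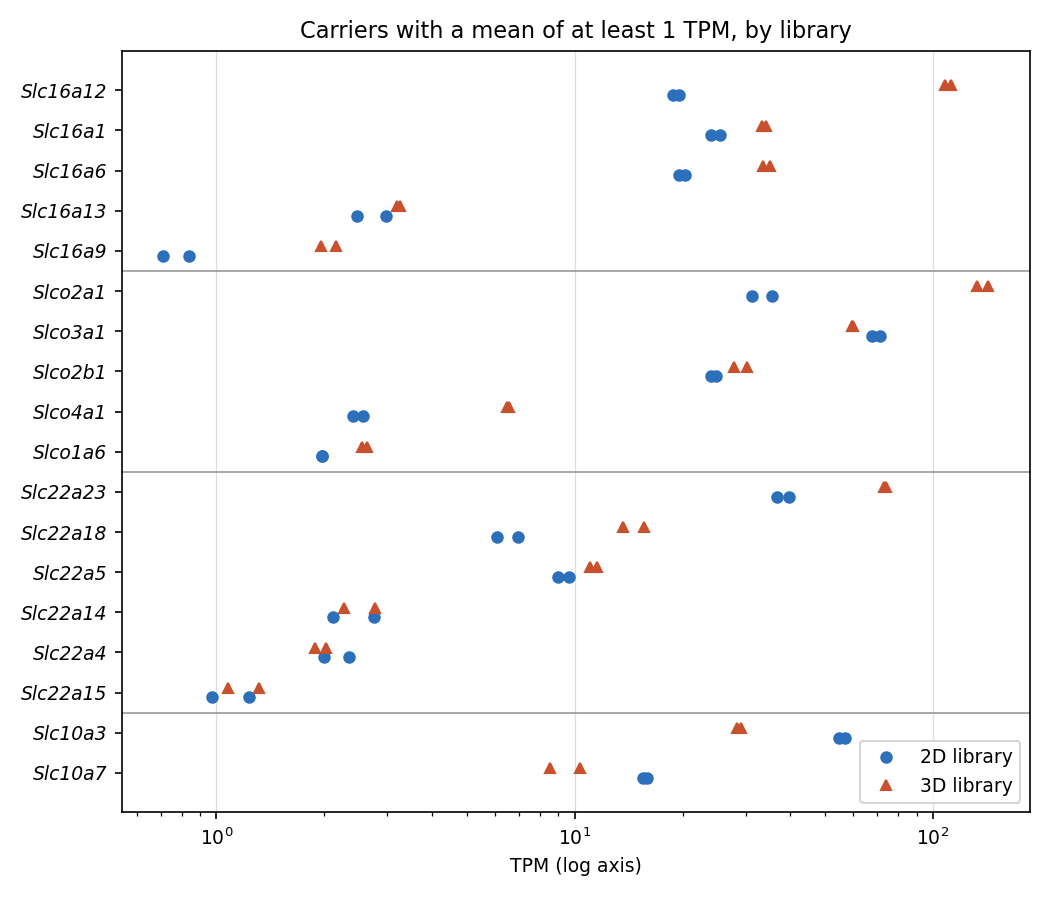
TPM of the 18 tested carriers (log axis) in each of the 4 libraries, with circles for 2D and triangles for 3D, grouped by family from Slc16 at the top to Slc10 at the bottom. The triangles of Slc16a12 and Slco2a1 stand far to the right of the circles, and both Slc10 carriers have their triangles on the left.

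**Figure D2:**
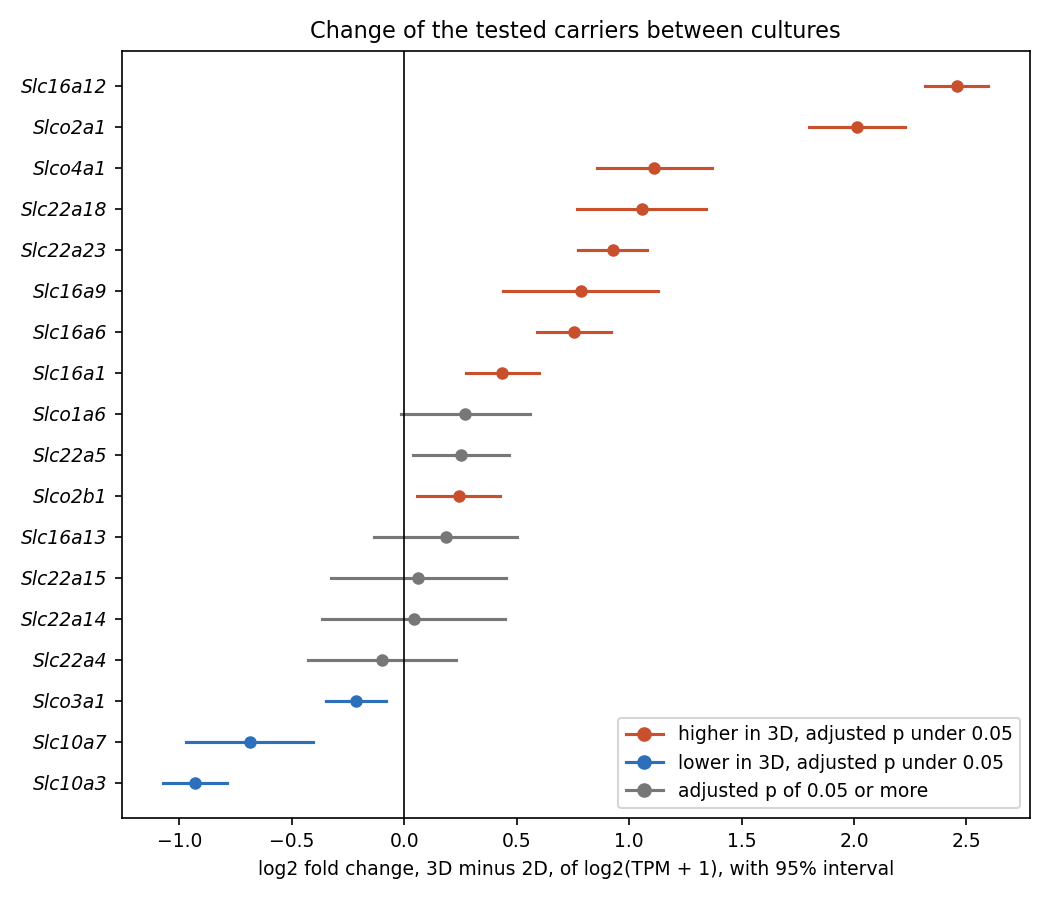
Log2 fold change of 3D over 2D for the 18 tested carriers on the log2(TPM + 1) scale, with the 95% interval of the limma fit as a bar and the colour showing the call. Values run from -0.93 for Slc10a3 to 2.46 for Slc16a12, and the intervals of Slc22a14, Slc22a15, Slc22a4, Slc16a13 and Slco1a6 include 0.

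Promoter sequences were read for the carriers from RefSeq on GRCm38.p6, as windows of 250 bases before and 50 bases after the annotated start. A window was found for 43 of the 56 carriers, and in 36 its start lay within 100 bases of the gene start in the deposited table. Among these are 6 of the carriers that rose, namely Slc16a1, Slc16a12, Slc22a18, Slc22a23, Slco2b1 and Slco4a1, and 1 that fell, Slc10a7. The RefSeq start of Slco2a1 lay 19775 bases inside the gene of the table, so its window is not shown. Both strands were searched for a core of the HNF1 site (GTTAAT), a core of nuclear receptor sites (AGGTCA), an E-box (CACGTG) and a GC box (GGGCGG), and matches that share bases were each counted. The windows of 4 carriers that rose and hold a match are printed from 5′ to 3′ on the gene's strand, so that a reader can see where the matches lie. Capitals mark matches on either strand.
Slc16a12, chr19:34747279-34747578, minus strand: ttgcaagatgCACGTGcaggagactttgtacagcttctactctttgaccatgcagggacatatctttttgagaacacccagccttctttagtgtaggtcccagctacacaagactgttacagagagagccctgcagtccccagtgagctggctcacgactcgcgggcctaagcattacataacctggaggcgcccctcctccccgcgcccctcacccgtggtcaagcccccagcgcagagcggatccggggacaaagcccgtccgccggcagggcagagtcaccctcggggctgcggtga
Slc16a1, chr3:104638414-104638713, plus strand: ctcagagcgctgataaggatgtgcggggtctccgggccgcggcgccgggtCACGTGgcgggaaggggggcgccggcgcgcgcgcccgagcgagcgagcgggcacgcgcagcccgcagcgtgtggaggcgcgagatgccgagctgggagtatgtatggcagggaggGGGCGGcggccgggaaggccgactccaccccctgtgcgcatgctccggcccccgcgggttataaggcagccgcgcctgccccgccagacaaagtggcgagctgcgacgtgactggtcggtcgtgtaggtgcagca
Slc22a23, chr13:34345169-34345468, minus strand: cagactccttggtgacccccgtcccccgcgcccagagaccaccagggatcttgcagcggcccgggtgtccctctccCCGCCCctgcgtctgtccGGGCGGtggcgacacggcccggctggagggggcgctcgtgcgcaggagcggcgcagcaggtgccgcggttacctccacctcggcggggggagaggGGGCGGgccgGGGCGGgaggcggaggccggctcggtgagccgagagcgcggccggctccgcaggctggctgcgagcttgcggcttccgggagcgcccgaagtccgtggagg
Slco4a1, chr2:180455995-180456294, plus strand: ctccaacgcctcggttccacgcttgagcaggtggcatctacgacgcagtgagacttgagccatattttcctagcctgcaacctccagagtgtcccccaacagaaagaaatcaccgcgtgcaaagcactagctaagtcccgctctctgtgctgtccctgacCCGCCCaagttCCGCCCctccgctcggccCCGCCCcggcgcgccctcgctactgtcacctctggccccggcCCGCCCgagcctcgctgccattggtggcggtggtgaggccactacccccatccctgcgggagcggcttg
An E-box was present in 2 of the 6 windows of risen carriers, at -240 bases from the start in Slc16a12 and at -200 in Slc16a1, and in 7.15% of all 32851 RefSeq windows. It was also in 1 of the 3 usable windows of carriers that did not pass, that of Slc22a4, and in 2 of the 26 windows of untested carriers. The GC box was present in 3 of the 6, with 4 matches each in Slc22a23 and Slco4a1 and 1 in Slc16a1, and in 35.7% of all windows. All 3 usable windows of carriers that did not pass, those of Slc22a4, Slc22a5 and Slc22a15, held a GC box as well. The windows of Slc22a18 and Slco2b1 held no match to any of the 4 motifs, and neither did that of Slc10a7. None of the 10 usable windows of tested carriers held the HNF1 core or the nuclear receptor core, which are in 7.10% and 16.3% of all windows. Among the 26 windows of untested carriers, the HNF1 core was in 3, those of Slc10a2, Slc16a10 and Slc22a6. The nuclear receptor core was in 2 of the 26, those of Slc22a27 and Slco1a1, and the GC box was in 6. A match is a description of these letters and not of a bound site.

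Of the Slc16 family, 5 of 14 members were tested, and 4 of them rose. Slc16a12, which carries creatine, was at 19.6 and 18.8 TPM in the 2D libraries and at 112 and 108 TPM in the 3D libraries. All 3D values lay above all 2D values, and Slc16a12 rose by 2.46 on the log2 scale (SE 0.05, adjusted p 0.000192 by limma), the largest rise among the carriers tested. Slc16a6 (MCT7), a ketone body carrier of liver, was at 19.5 and 20.3 TPM in 2D and at 35.1 and 33.5 TPM in 3D. It rose by 0.75 on the log2 scale (SE 0.06, adjusted p 0.00128 by limma), with no overlap between cultures. The gene overlaps Arsg and Amz2 on the opposite strand, and reads were mapped with their strand.

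Slc16a1 (MCT1), the widespread carrier of lactate and pyruvate, whose E-box and GC box are shown above, was at 24.0 and 25.5 TPM in 2D and at 33.4 and 34.3 TPM in 3D. The cultures were separate, with a rise of 0.44 on the log2 scale (SE 0.06, adjusted p 0.00529 by limma). Slc16a9 (MCT9) was at 0.710 and 0.841 TPM in 2D and at 1.96 and 2.16 TPM in 3D, a ratio of means of 2.65. On the log2 scale Slc16a9 rose by 0.78 (SE 0.13, adjusted p 0.00855 by limma), a value that was 1.303 with a pseudocount of 0.1 and 0.29 with one of 5, and without 3D replicate 2 its adjusted p was 0.0504. Slc16a13 (MCT13) was at 2.48 and 2.97 TPM in 2D and at 3.26 and 3.18 TPM in 3D. Its libraries did not overlap, yet the log2 difference of 0.18 (95% interval -0.13 to 0.50, adjusted p 0.259 by limma) did not pass. The 9 remaining members of the family stayed at or below 0.303 TPM in every library, among them Slc16a3 (MCT4), the lactate exporter of glycolytic cells, at 0.0138 to 0.109 TPM.

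Among the Slco carriers 5 of 11 were tested, with 3 higher and 1 lower in 3D. Slco2a1, the prostaglandin transporter, was at 31.2 and 35.6 TPM in 2D and at 143 and 133 TPM in 3D. The 3D mean was 4.12 times the 2D mean, a rise of 2.01 on the log2 scale (SE 0.08, adjusted p 0.000317 by limma). In 3D it was the highest of all carriers. Slco4a1 (OATP4A1), which carries thyroid hormones and prostaglandins, was at 2.40 and 2.56 TPM in 2D and at 6.49 and 6.57 TPM in 3D. Slco4a1 rose by 1.11 on the log2 scale (SE 0.10, adjusted p 0.00142 by limma), and by 0.62 with a pseudocount of 5, with replicates closer to each other than to any library of the other culture.

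The remaining tested Slco carriers differed by less than 0.3 on the log2 scale. Slco3a1 (OATP3A1), the highest carrier of all in 2D, was at 67.7 and 71.3 TPM there and at 59.6 and 59.9 TPM in 3D, and fell by 0.21 on the log2 scale (SE 0.05, adjusted p 0.0233 by limma). Slco2b1 (OATP2B1), which takes up conjugated steroids, was at 24.9 and 23.9 TPM in 2D and at 30.3 and 27.8 TPM in 3D, and rose by 0.24 on the log2 scale (SE 0.07, adjusted p 0.0431 by limma). Both calls were lost when libraries were left out. For Slco2b1 the adjusted p was 0.0828 without 2D replicate 1, 0.128 without 2D replicate 2, 0.188 without 3D replicate 1 and 0.0685 without 3D replicate 2. For Slco3a1 it was 0.0692 without 2D replicate 2, 0.105 without 3D replicate 1 and 0.0991 without 3D replicate 2. Slco1a6 was at 1.97 and 1.98 TPM in 2D and at 2.54 and 2.64 TPM in 3D, a log2 difference of 0.27 (95% interval -0.02 to 0.56, adjusted p 0.0997 by limma) that did not pass. It lies in a run of related Slco1 genes, so reads that match more than 1 copy may have been split among them.

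In the Slc22 family 6 of 22 members were tested, of which 2 rose and 4 did not pass. Slc22a23, an orphan member, was at 36.8 and 39.6 TPM in 2D and at 74.0 and 72.9 TPM in 3D. No 3D value was near a 2D value, and Slc22a23 rose by 0.93 on the log2 scale (SE 0.06, adjusted p 0.000667 by limma). Slc22a18, an imprinted gene that encodes a polyspecific organic cation carrier, was at 6.95 and 6.07 TPM in 2D and at 13.7 and 15.6 TPM in 3D. Slc22a18 rose by 1.06 on the log2 scale (SE 0.11, adjusted p 0.00228 by limma), again without overlap.

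The carnitine carrier Slc22a5 (OCTN2) was at 9.66 and 8.99 TPM in 2D and at 11.04 and 11.55 TPM in 3D. Its libraries did not overlap, and the log2 difference of 0.25 (95% interval 0.04 to 0.47) had an adjusted p of 0.0569 by limma. Slc22a4 (OCTN1), the ergothioneine carrier beside it on chromosome 11, was at 2.00 and 2.34 TPM in 2D and at 2.02 and 1.89 TPM in 3D. The cultures overlapped for Slc22a4, with a log2 difference of -0.10 (95% interval -0.43 to 0.23). Slc22a15 was at 1.23 and 0.972 TPM in 2D and at 1.32 and 1.08 TPM in 3D, also with overlap, and the log2 difference of 0.06 had a 95% interval of -0.33 to 0.45. For Slc22a14, at 2.11 and 2.75 TPM in 2D and at 2.78 and 2.27 TPM in 3D, the level is uncertain. The gene spans 196099 bases on chromosome 9 and shares bases with Slc22a13, Myd88 and Oxsr1 on its own strand, so that reads could be split in more than 1 way. Oxsr1 averaged 89.8 TPM over the 2D libraries and 49.6 TPM over the 3D libraries.

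Both tested members of the Slc10 family fell. Slc10a3, an orphan member of the sodium bile acid family, was at 54.5 and 56.8 TPM in 2D and at 28.4 and 29.1 TPM in 3D. The 3D mean was 0.516 of the 2D mean, and Slc10a3 fell by 0.93 on the log2 scale (SE 0.05, adjusted p 0.000577 by limma). This level is uncertain because 4002 of the 4133 bases of Slc10a3 on chromosome X lie within the span of Ubl4a on the same strand. Ubl4a averaged 29.0 ± 5.64 TPM over the 2D libraries and 21.5 ± 0.769 TPM over the 3D libraries (SD, n = 2 each), a log2 difference of -0.40 (adjusted p 0.0696 by limma) that did not pass. Slc10a7, a member linked to calcium and to skeletal glycosaminoglycans, was at 15.9 and 15.5 TPM in 2D and at 8.55 and 10.3 TPM in 3D. It fell by 0.69 on the log2 scale (SE 0.11, adjusted p 0.00700 by limma), and both 3D libraries lay below both 2D libraries.

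The bile acid carriers proper were not among the tested genes. Slc10a1 (NTCP), the sodium bile acid carrier of the sinusoidal membrane, was at 0.0360 TPM in 2D replicate 1 and at 0.104 TPM in 3D replicate 1, and is listed at 0 in the other two libraries. Slc10a2 (ASBT), which takes up bile acids in ileum, kidney and bile duct cells, was at 0.0456 and 0.179 TPM in 2D and at 0.780 and 0.626 TPM in 3D. The 3D values of Slc10a2 were above the 2D values, at levels under 1 TPM throughout. Slc10a4, Slc10a5 and Slc10a6 stayed at or below 0.151 TPM in every library.

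Slco1a1 and Slco1a4, organic anion uptake carriers of the sinusoidal membrane, were at or near 0 in both cultures, whereas Slco2b1 of the same membrane was at 23.9 to 30.3 TPM. Slco1a1 is listed at 0 in 3 of 4 libraries and was at 0.0201 TPM in 3D replicate 1. Slco1a4 is listed at 0 in both 2D libraries and was at 0.0159 and 0.0650 TPM in 3D. These values are low in both cultures, and with TPM alone no limit of detection can be given.

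Slc22a7 (OAT2), a hepatic organic anion carrier, was at 0.251 and 0.411 TPM in 2D and at 0.106 and 0 TPM in 3D. Slc47a1 (MATE1), the canalicular exporter of organic cations, was at 0.267 and 0.189 TPM in 2D and at 0.223 and 0.191 TPM in 3D, and the cultures overlapped. The aromatic amino acid carrier Slc16a10 (TAT1) had at most 0.130 TPM. Slco1b2 was not analysed here. Over all 38 untested carriers the highest value in any library was 0.899 TPM, for Slc22a12 in 3D. Of these carriers 27 had a mean under 0.1 TPM, 9 are listed at 0 in both 2D libraries and 2 in both 3D libraries. A value of 0 in such a table can also be a failed estimate.

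**Figure D3:**
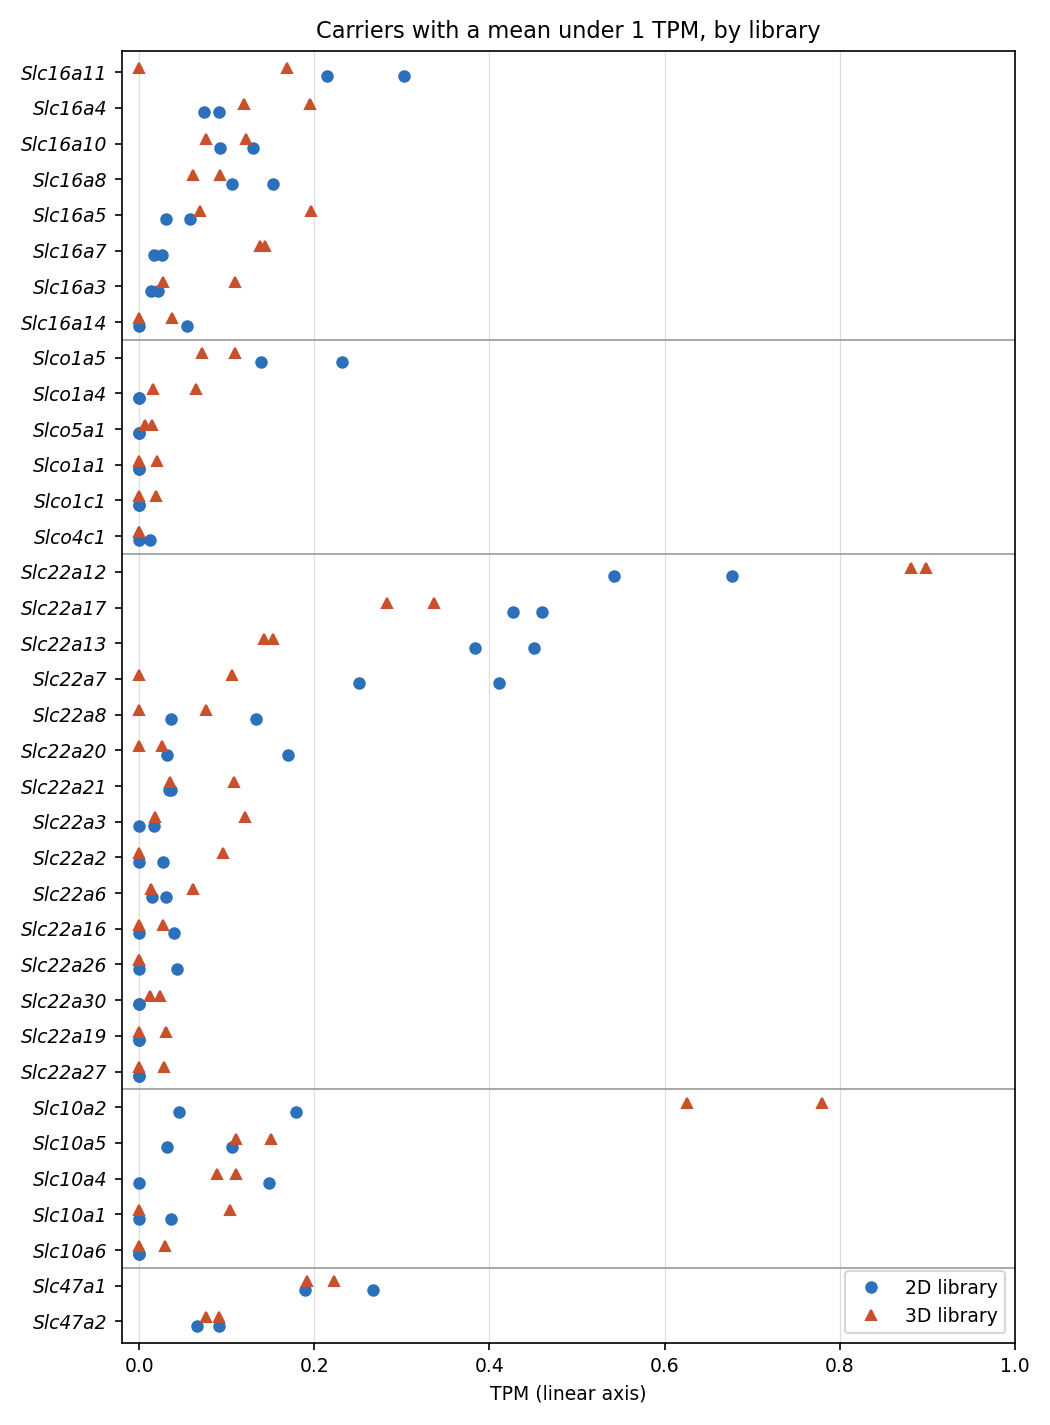
TPM of 36 of the 38 carriers with a mean under 1 TPM (linear axis) in each library, with circles for 2D and triangles for 3D, grouped by family. Most points lie under 0.2 TPM, and Slc22a12 and Slc10a2 in 3D reach the highest values, up to 0.899 and 0.780 TPM.

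Some carriers lie in runs of neighbours on a chromosome. With gaps of at most 500000 bases, 25 of the 56 carriers lay in 8 runs of neighbours, and 5 of these 25 were tested. Of the 31 carriers outside runs, 13 were tested. None of the 5 tested carriers inside runs passed and 12 of the 13 outside did, where 50.5% of all genes tested passed. The levels differed too. The 5 inside runs had means of 2.06 to 10.3 TPM, and those outside had higher means except Slc22a15, Slc16a9 and Slco4a1. Slc22a5 and Slco1a6, both inside runs, passed under some alternatives, with adjusted p-values by limma of 0.0429 to 0.0494 for Slc22a5 and 0.0227 for Slco1a6. The difference between carriers inside and outside runs was not tested. The run of 6 Slc22 genes on chromosome 19 between 7673061 and 8628299 (GRCm38), which holds the renal and hepatic anion carriers Slc22a6, Slc22a8, Slc22a19, Slc22a26, Slc22a27 and Slc22a30, had no mean above 0.0613 TPM. In the run of 5 Slco1 genes on chromosome 6 (141524368 to 142322981) Slco1a6 had 2.28 TPM on average while Slco1a1, Slco1a4, Slco1a5 and Slco1c1 had means of at most 0.138 TPM.

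Summed over the 56 carriers, the level was 327 and 340.5 TPM in 2D and 574 and 559 TPM in 3D, a ratio of means of 1.70. The mean sums of 2D and 3D, in that order and with the SD of 2 libraries each, were 68.1 ± 1.60 and 184 ± 3.46 TPM for Slc16 and 132 ± 5.00 and 236 ± 8.68 TPM for Slco. For Slc22 they were 61.8 ± 1.46 and 107 ± 0.370 TPM, and for Slc10 they were 71.7 ± 1.33 and 39.2 ± 1.56 TPM. The 2 Slc47 genes summed to 0.307 ± 0.0375 and 0.291 ± 0.0119 TPM. Most of the difference in the total lay in a pair of genes. Without Slco2a1 and Slc16a12 the remaining 54 carriers summed to 281 ± 6.82 and 319 ± 0.119 TPM, a ratio of 1.13. No test was made of these sums.

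**Figure D4:**
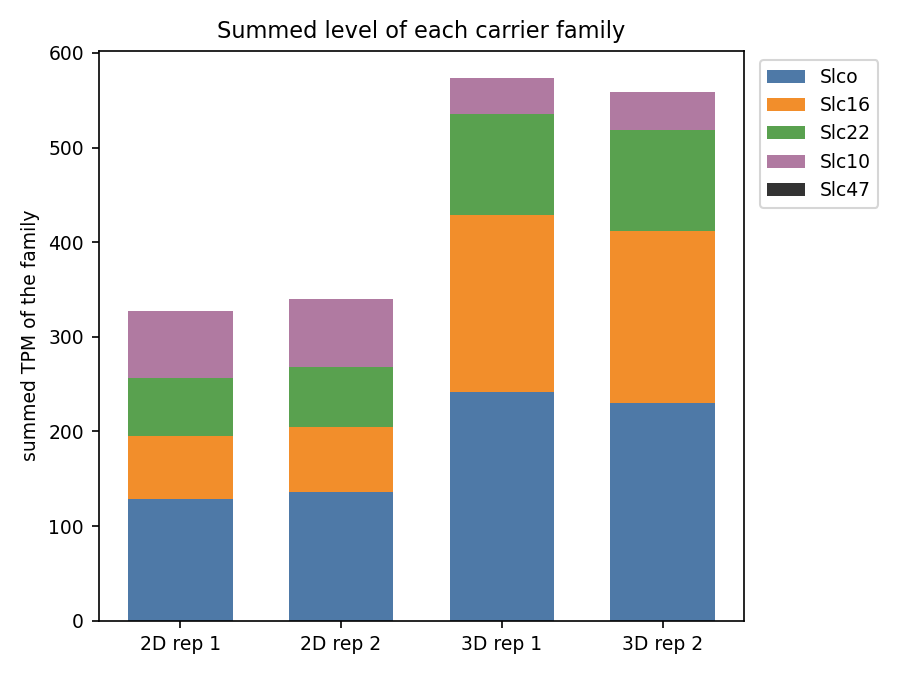
Summed TPM of each carrier family, stacked, for the 4 libraries, with the axis starting at 0. The stack reaches 327 and 340.5 TPM in 2D and 574 and 559 TPM in 3D. The Slc16, Slco and Slc22 segments are taller and the Slc10 segment is shorter in 3D, and the Slc47 segment is too thin to be seen.

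The leading carrier differed between the cultures for Slco and Slc16 and stayed in place for Slc22 and Slc10. In the Slco family Slco3a1 held 52.7% and 52.6% of the summed TPM in 2D and 24.6% and 26.1% in 3D. Slco2a1 went the other way, with 24.3% and 26.3% in 2D and 59.04% and 57.75% in 3D. Slc16a12 held 29.2% and 27.2% of the Slc16 sum in 2D and 60.0% and 59.4% in 3D, and Slc16a1 led that family in 2D. Slc22a23 led its family in both cultures, with 60.5% and 63.0% in 2D and 69.4% and 68.1% in 3D, as did Slc10a3, with 77.1% and 78.2% in 2D and 74.5% and 72.2% in 3D.

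By mean TPM, the tested carriers in 2D stood in the order Slco3a1, Slc10a3, Slc22a23 and Slco2a1, each with both libraries above the next. Slc16a1 and Slco2b1 came after them and overlapped each other, as did Slc16a6 and Slc16a12. In 3D the order was Slco2a1, Slc16a12, Slc22a23 and Slco3a1, again each above the next. Slc16a6 and Slc16a1 overlapped each other there, as did Slco2b1 and Slc10a3. Of the 17 steps down the order, libraries of neighbours overlapped in 5 in 2D and in 4 in 3D.

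Genes that work with the carriers were grouped by role. Of all genes tested, 50.5% were called, as given above. The efflux pumps, some of which export what the carriers bring in, moved in both directions. Of 12 pumps 9 were tested, with 4 higher and 3 lower. Abcc3, a sinusoidal exporter of conjugates, was at 57.7 and 60.9 TPM in 2D and at 114 and 115 TPM in 3D and rose by 0.94 on the log2 scale (adjusted p 0.000467 by limma), and Abcc4 rose by 0.41 (adjusted p 0.00693 by limma). The canalicular pump Abcc2 (MRP2) was at 2.22 and 3.83 TPM in 2D and at 63.0 and 59.4 TPM in 3D, a rise of 3.98 on the log2 scale (adjusted p 0.000465 by limma). Abcg2 fell from 78.5 and 79.7 TPM to 41.4 and 36.8 TPM a ratio of means of 0.495 (adjusted p 0.000875 by limma). The 4 pumps that rose were Abcc1, Abcc2, Abcc3 and Abcc4, and the 3 that fell were Abcg2 and the P-glycoprotein genes Abcb1a and Abcb1b, where Abcc1, Abcc2, Abcb1a and Abcb1b are named after their values were seen.

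Of 18 genes for bile acid synthesis, regulation and export, 17 were in the table and 7 were tested, with 4 higher and 2 lower. Cyp27a1, which starts the alternative route of bile acid synthesis, was at 15.7 and 17.7 TPM in 2D and at 28.7 and 28.7 TPM in 3D and rose by 0.75 on the log2 scale (adjusted p 0.00244 by limma). Nr1h4 (FXR), the bile acid receptor, fell by 0.30 (adjusted p 0.00474 by limma). Cyp7a1, the rate-limiting enzyme of the classical route, stayed at or below 0.0436 TPM in every library, and the canalicular bile acid pump Abcb11 was at 1.61 and 1.90 TPM in 2D and at 0.641 and 0.501 TPM in 3D and fell by 0.81 on the log2 scale (adjusted p 0.00997 by limma). These last genes were named after their values were seen. The count of 4 higher genes was smaller whichever library was left out, and so was the share of all genes called.

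For monocarboxylate carriers, 11 of 14 genes for their chaperones and for lactate and pyruvate metabolism were tested, with 4 higher and 1 lower. Bsg (basigin), the chaperone of Slc16a1 at the membrane, was at 611 and 526 TPM in 2D and at 594 and 568 TPM in 3D, and the cultures overlapped (adjusted p 0.748 by limma). Ldha rose from 403 and 399 TPM to 533 and 535 TPM a rise of 0.41 on the log2 scale (adjusted p 0.00110 by limma), and Me1, which makes pyruvate from malate, rose by 0.88 (adjusted p 0.000318 by limma). Pdha1 fell by 0.24 (adjusted p 0.00896 by limma), and that lower call was lost without 3D replicate 1 and without 3D replicate 2. The share of all genes called was smaller in both of these runs.

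Genes of carnitine handling, which use the substrate of Slc22a5, had 7 tested of 9 in the table, with 5 higher and 2 that did not pass. Cpt1a, which makes acylcarnitines at the mitochondrial outer membrane, was at 47.7 and 50.6 TPM in 2D and at 157 and 151 TPM in 3D and rose by 1.63 on the log2 scale (adjusted p 0.000241 by limma). Slc25a20, the mitochondrial carnitine carrier, rose by 0.33 (adjusted p 0.00966 by limma). The count of 5 was smaller without 3D replicate 1 and without 3D replicate 2, and in the latter case a lower call appeared. The share of all genes called was smaller in both runs as well. Of 7 genes of thyroid hormone handling 3 were tested and 2 rose, namely Ttr and Thra, of which Ttr went from 3.98 and 3.11 TPM to 88.1 and 80.9 TPM. That count was smaller whichever of the 4 libraries was left out, and so was the share of all genes called.

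Among 13 regulators known to act on hepatic carriers 10 were tested, with 8 higher and 1 lower. Hnf4a was at 56.7 and 57.6 TPM in 2D and at 164 and 156 TPM in 3D and rose by 1.47 on the log2 scale (adjusted p 0.000241 by limma), and Nfe2l2 (NRF2) rose by 0.65 (adjusted p 0.000665 by limma). The lower gene was Nr1h4, which also stands in the bile acid list. Of 6 genes for scaffold proteins that link carriers to the cortex 2 rose and 2 fell. Those that rose were Pdzk1 and Slc9a3r2, named after their values were seen. Pdzk1 was at 0.139 and 0.225 TPM in 2D and at 3.24 and 2.06 TPM in 3D and rose by 1.61 on the log2 scale (adjusted p 0.00383 by limma). It reached a mean of 1 TPM only through the 3D libraries. Slc9a3r2 rose by 0.57 (adjusted p 0.00171 by limma). Ezr was at 1052 and 1074 TPM in 2D and at 1007 and 1014 TPM in 3D and did not pass (adjusted p 0.116 by limma), whereas Msn fell by 0.71 and Rdx fell by 0.64 (adjusted p 0.000683 and 0.000897 by limma).

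**Figure D5:**
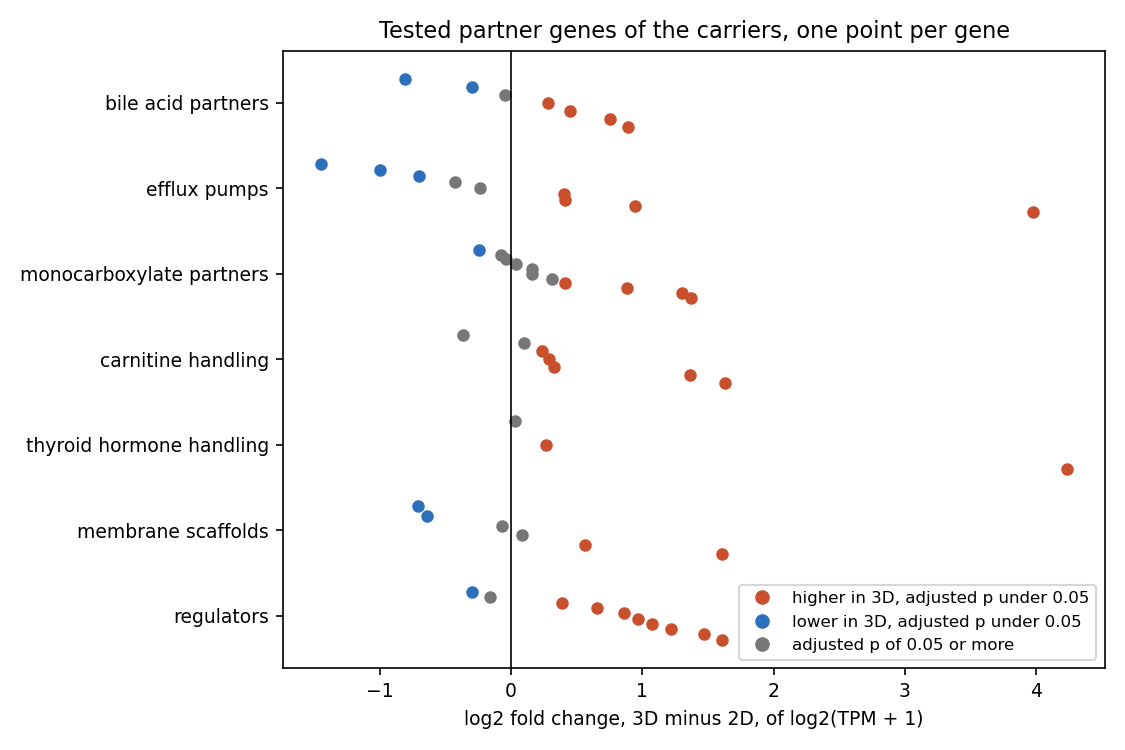
Log2 fold change of 3D over 2D on the log2(TPM + 1) scale for the tested genes of each list that works with the carriers, with 1 point per gene and the colour showing the call. Efflux pumps spread from below -1 to 3.98 for Abcc2, while the regulators lie mostly to the right of 0.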

How the data were processed

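AML12 RNA was made into stranded libraries, 2 per culture. According to the submitters' notes and the methods, the tools were cutadapt 1.8.3 and Trimmomatic 0.36 for trimming, HISAT2 2.0.5 for strand-aware mapping to GRCm38, and StringTie 1.3.4 with Ensembl 93 annotation. The authors deposited TPM for each library, not pooled. They also deposited a log2 fold change and a p-value for each gene from their own test of read counts, and neither column was used.

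Libraries were grouped by the labels. Genes with a mean of at least 1 TPM were compared by limma 3.58.1 (R 4.3.3) on log2(TPM + 1). The model held culture alone, eBayes used a robust trend, and tests were two-sided, with Benjamini-Hochberg adjustment over all 14116 genes. Adding 1 shrinks the log2 change of low genes. Exact permutation of 4 libraries gives at best a p-value of 0.333 and was not used. Intervals are 95% limma intervals. Of the 56 carriers, 49 have the same position in GENCODE M21. The limma step was tried on simulated data. Few genes were changed there, none of them low or by small amounts, so that run does not bear on such calls.

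Carriers, lists and motifs were chosen with earlier results of these data known. Named carriers were those with a mean of at least 1 TPM, hepatocyte carriers whatever their level, and up to 4 genes per list by mean TPM. Slc16a3 and some other carriers under 1 TPM were named outside this rule. Alternatives were pseudocounts of 0.1 and 5, no filter, a mean of at least 5 TPM, 4 other scalings, a constant prior variance, a replicate block, a fold change threshold and each library left out. A few genes are counted in their family or list and not reported singly here.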

Additional observations from a re-analysis of the deposited data

How the results depend on the processing

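The count of carriers higher in 3D stayed between 7 and 10 under the 14 alternatives without a fold change threshold, and that of carriers lower in 3D between 2 and 3. With an absolute log2 fold change over 1 required as well they were 4 and 0. The share of all genes called was 50.5% in the main fit. Under the 14 alternatives it ran from 18.8% with no filter to 55.0% with a mean of at least 5 TPM. The median log2 fold change of the tested carriers was 0.26. It was 0.0394 with no filter on low values, where all 56 carriers were tested, and 0.44 with a mean of at least 5 TPM, where 11 carriers were tested. With no filter Slc10a2 was called higher, and Slco2b1 and Slco3a1 were not called. Libraries with the same replicate number did not move together around their culture means (r = -0.0549 across 14116 genes), and the number was not taken as a pairing. With the replicate block 8 carriers were higher and 2 lower, and Slco2b1 and Slco3a1 lost their calls (adjusted p 0.0636 and 0.0523), while the share of all genes called was 44.3%. Slc22a5 was called higher after both rescalings of TPM (adjusted p 0.0449 and 0.0494) and, as was Slco1a6, with a constant prior variance (adjusted p 0.0429 and 0.0227), where Slco2b1 was not (adjusted p 0.0565).

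Leaving out each library gave the tested carriers a median log2 fold change of 0.28 to 0.29. In each of these runs a smaller share of all genes was called than with all 4 libraries. A culture is then left with a lone library, which is assumed to vary like the others. Of 245 values for single carriers 224 kept their direction and side of the threshold, 13 were no longer past it, 4 newly were and 4 reversed. The reversed values were those of Slc22a15, -0.0270 without 2D replicate 2 and -0.0162 without 3D replicate 1, and of Slc22a14, -0.0930 without 2D replicate 1 and -0.0629 without 3D replicate 1. With each library left out, Slc22a15 ranged up to 0.153 and Slc22a14 up to 0.176. Neither gene passed in any alternative run. The cause was not tested. Over all lists of partner genes 29 were higher and 8 lower, and the alternatives gave 21 to 29 and 7 to 9. Depth is unknown, which limits what can be said of carriers under 1 TPM.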
